A study of Mus musculus with 12 samples.

Results

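The genes described here are 9 protein-coding genes that lie near Sox4 on mouse chromosome 13: Zfp184, Gmnn and Hdgfl1 on its lower-coordinate side, and Cdkal1, E2f3, Mboat1, Dusp22, Irf4 and Exoc2 on its higher-coordinate side. They were chosen by name and by position, within 8 Mb of Sox4, with measured differences between the genotypes of these same mice already known. All 9 had a probe on the array, 11 probes in all, and 8 of the 9 passed a filter on dim signal and entered a fit of 16181 named genes. The question behind the choice was whether neighbours of a targeted allele differ with genotype in animals of mixed background.

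The study measured total RNA of plucked skin from 12 male mice on 12 one-colour Agilent arrays, 1 array per mouse, 12 days after plucking. The groups were WT and cKO, the latter with Sox4 conditionally knocked out in skin. All groups had a mixed background with 75 parts C57Bl6 to 25 parts 129Sv and all were plucked. Exp 1 held 3 WT (mice 1, 2 and 3) and 3 cKO (mice 2, 5 and 6) aged 68 to 72 weeks, and Exp 2 held 3 WT (mice 4, 5 and 6) and 3 cKO (mice 1, 3 and 4) aged 16 to 20 weeks, so the age of the mice cannot be told apart from the experiment. The Cre driver, the deleted stretch of Sox4 and the number of backcrosses around the targeted allele were not given in the sources used here.

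Sox4 is a transcription factor of the SoxC family that binds short DNA motifs through its HMG box. When an allele is engineered in embryonic stem cells of one strain and crossed into another, a stretch of the donor strain's chromosome on either side of the allele usually travels with it, and genes in that stretch can differ between knockout and control animals by strain. A deletion can also alter neighbouring genes in cis, and a lost transcription factor can alter them in trans. None of these was tested, and the strain of origin of the flanking chromosome was not analysed here. Skin regrowing hair after plucking contains epidermis, growing follicles with dividing matrix cells, pigment cells, dermis, fat and immune cells.

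Distances below are between the lower-coordinate ends of the genes in RefSeq's GRCm38.p6 annotation and serve only as neighbour order, because the array annotation was made on another build. Cdkal1 was the first protein-coding gene on the higher side of Sox4, at 0.24 Mb, followed by E2f3 at 0.96 Mb and Mboat1 at 1.19 Mb. Dusp22 lay at 1.71 Mb, Irf4 at 1.80 Mb and Exoc2 at 1.84 Mb, as the sixth, seventh and eighth protein-coding genes on that side. On the lower side, Hdgfl1 lay at 2.18 Mb beyond the prolactin gene cluster, Gmnn at 4.20 Mb, and Zfp184 at 7.0 Mb inside the stretch that holds the large histone gene cluster, as the 126th protein-coding gene on that side.

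Of the 9 genes, 7 had promoter sequence in the RefSeq table used (GRCm38.p6), with 10 annotated starts. The upstream 250 bases of each start were searched on both strands for the core motifs ACAAAG (reverse complement CTTTGT) and ACAATG (reverse complement CATTGT), which SOX proteins are known to bind and which cannot overlap at the same bases. ACAAAG occurred upstream of Zfp184 and Cdkal1 and of none of the other 5 genes, and it occurred in 16.5% of the 32851 upstream windows of this length in the table. ACAATG occurred at 1 of the 2 starts of Exoc2, and in 10.7% of all windows. Both printed windows are shown 5′ to 3′ on the strand of the gene because they belong to the gene with the largest difference between genotypes and to the nearest neighbour of Sox4. Capitals mark the match, read as CTTTGT in both. The first window is chr13:21944844-21945093 on the plus strand, with the match beginning 115 bases before the start, and the second is chr13:29855674-29855923 on the minus strand, with the match beginning 95 bases before the start. A match is a description of these letters and was not tested as a binding site.
Zfp184 upstream: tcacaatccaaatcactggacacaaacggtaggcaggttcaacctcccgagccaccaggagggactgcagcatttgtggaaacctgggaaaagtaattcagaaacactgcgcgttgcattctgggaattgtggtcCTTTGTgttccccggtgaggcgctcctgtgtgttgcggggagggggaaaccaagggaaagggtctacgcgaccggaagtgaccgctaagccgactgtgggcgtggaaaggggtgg
Cdkal1 upstream: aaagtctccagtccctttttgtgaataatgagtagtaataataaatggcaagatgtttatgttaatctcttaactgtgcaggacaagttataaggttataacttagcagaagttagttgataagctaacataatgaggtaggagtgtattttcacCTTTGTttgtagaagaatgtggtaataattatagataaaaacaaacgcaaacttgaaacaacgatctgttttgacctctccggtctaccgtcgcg

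Values below are log2 of the background-subtracted signal minus the 75th percentile of the same array, so 0 is the level of that percentile. Levels of different probes cannot be compared with each other. The array of cKO mouse 5 stood apart, with the lowest share of probes above background (53.9%, against 54.7% to 62.6% on the others) and the lowest 75th percentile (365 intensity units, against 396 to 554), so values are also given without it. Sox4 served as the check of the labels. Its brighter probe read 1.90 to 2.43 in the 6 WT mice and -4.26 to -2.55 in the 6 cKO mice, a difference of -5.54 ± 0.12 (SE). It was above background in 4 of 6 cKO mice and not in cKO mice 5 and 6, so the size of this difference is a bound for those mice. The other Sox4 probe was above background in all 6 WT mice, at -0.62 to 0.06, and in none of the 6 cKO mice. Keratinocyte markers were bright in every mouse, with a mean over 8 genes of 6.08 to 7.57, and so were hair follicle markers, with a mean over 8 genes of 4.51 in cKO mouse 5 and at most 7.23.

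Differences between the genotypes are given first and as a description only, because the genes were selected on this contrast. Of the 8 fitted genes, Zfp184 alone passed the threshold of an adjusted p of 0.05 in limma for cKO minus WT averaged over both experiments, where 0.42% of all 16181 genes passed (68 genes, 63 of them lower in cKO). No gene of the 8 passed within Exp 1, where 0.117% of all genes did, or within Exp 2, where 0.0618% did. Without cKO mouse 5 the difference of Zfp184 was -1.89 ± 0.23 (SE) in Exp 1. In Exp 2, which did not hold that mouse, it stayed at -1.53, with an SE of 0.21 in place of 0.53. The genotypes did not overlap for Zfp184 alone, against 1.25% of all genes. The difference was below 0 for 5 of the 8, with a median of -0.26, and the median over all genes was -0.04. These counts were fixed in part by how the genes were picked, and nothing is read from them.

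**Figure D1:**
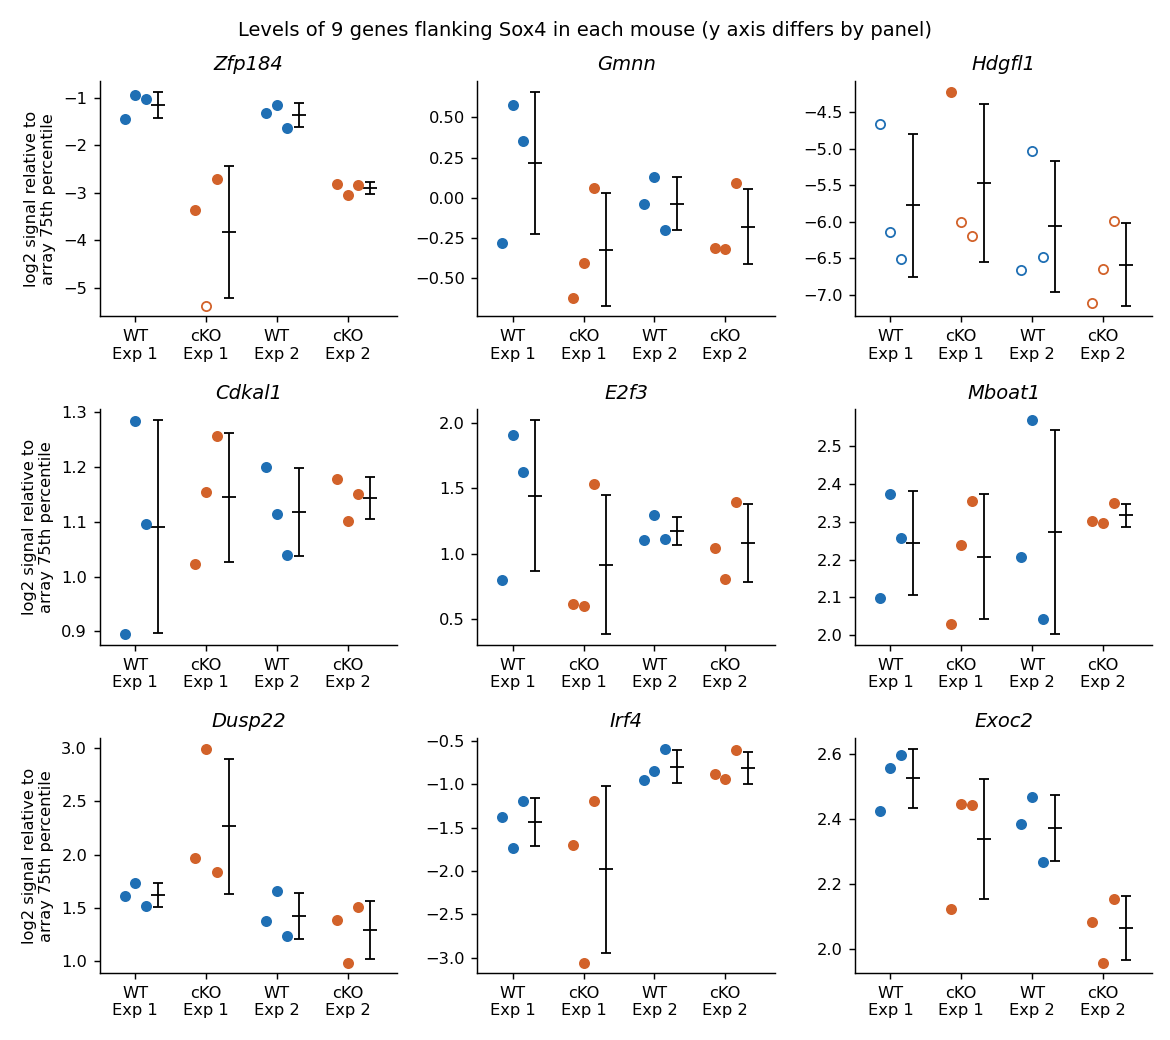
Level of each of the 9 genes in every mouse (log2 signal minus the array's 75th percentile; brighter probe where there are 2), by genotype and experiment. Open circles are arrays where the probe was not well above background, and the bar beside each group is its mean ± SD (n = 3). Zfp184 separates the genotypes in both experiments, Hdgfl1 is above background in 1 mouse only, and the level of cKO mouse 5 is the lowest for Zfp184 and Irf4 and the highest for Dusp22.

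Zfp184 encodes a zinc finger protein of the KRAB type, a class of DNA-binding proteins that mostly repress transcription. It read -1.46, -0.95 and -1.03 in WT mice 1 to 3 and -1.32, -1.14 and -1.64 in WT mice 4 to 6. In cKO mice 1 to 6 it read -2.82, -3.37, -3.06, -2.83, -5.38 and -2.71. Every cKO mouse therefore lay below every WT mouse, and the gap between the genotypes ran from -1.64 to -2.71. The probe was above background in all 6 WT mice and in 5 of 6 cKO mice, cKO mouse 5 being the exception, where the unscaled signal was 8.73 intensity units. The WT mean was -1.26 ± 0.27 and the cKO mean -3.36 ± 1.02 (SD, n = 6 each), a difference of -2.11 ± 0.37 (SE), or 4.30-fold lower in cKO. The difference was -2.68 ± 0.53 in Exp 1 and -1.53 ± 0.53 in Exp 2. Without cKO mouse 5 it was -1.71 averaged over experiments and -1.89 in Exp 1, and the genotypes still did not overlap. With background correction by normexp and quantile normalization the difference was -1.20, and in the authors' deposited value table it was -1.26.

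That call sat close to the threshold. Leaving out cKO mouse 5 or cKO mouse 6 kept it, and leaving out any one of the other 10 mice (WT mice 1 to 6 and cKO mice 1 to 4) ended it, while the difference stayed between -2.38 and -1.71 over all 12 such fits. Within slide 1 the difference was -1.86 and within slide 2 it was -2.64. On slide 2 the only cKO mouse of Exp 1 was cKO mouse 5, where the probe was not above background. By size of difference in either direction Zfp184 ranked 33rd among the 16181 genes. A single probe measured it, so no other probe of the gene could be set beside it.

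Gmnn encodes geminin, which blocks re-licensing of replication origins by binding Cdt1 and is present in cells from S phase to mitosis. Its level was -0.28, 0.58 and 0.35 in WT mice 1 to 3 and -0.04, 0.13 and -0.20 in WT mice 4 to 6. In cKO mice 1 to 6 it was -0.31, -0.62, -0.32, 0.09, -0.41 and 0.06. The genotypes overlapped, with 4 of 6 cKO mice below every WT mouse. The difference was -0.34 ± 0.17 (SE) averaged over experiments, -0.54 ± 0.24 in Exp 1 and -0.14 ± 0.24 in Exp 2. Without cKO mouse 5 the averaged difference was -0.32.

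E2f3 encodes a transcription factor that drives genes of the G1 to S transition and is held in check by the retinoblastoma protein. Its brighter probe read 0.80, 1.91 and 1.62 in WT mice 1 to 3 and 1.11, 1.30 and 1.12 in WT mice 4 to 6. In cKO mice 1 to 6 it read 1.04, 0.62, 0.81, 1.40, 0.60 and 1.53. The genotypes overlapped widely, and the spread was largest among the older mice of both genotypes. The difference was -0.31 ± 0.22 (SE), and -0.23 without cKO mouse 5. The second probe, for the same transcript, gave -0.29, which moved to -0.09 without cKO mouse 5, where that probe was at its lowest (-3.20).

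Gmnn and E2f3 varied together over the 12 arrays, which share both genotype and experiment structure (Pearson r = 0.96 as a description). The mean of the 7 measured proliferation markers per mouse followed Zfp184 (r = 0.87), Gmnn (r = 0.81) and E2f3 (r = 0.74), and without cKO mouse 5 these values were 0.78, 0.83 and 0.68. Those markers, among them Top2a, the topoisomerase of mitotic chromosomes, and Tpx2, a spindle assembly factor, were lower in cKO for 7 of 7, with none called and a median of -0.39. Their summed level, as a mean of log2 values, was 1.86 to 2.30 in WT and 1.29 to 1.97 in cKO, lowest in cKO mouse 5. Their part in the values of Zfp184, Gmnn and E2f3 was not tested. In these bulk samples fewer cells of a type and less RNA per cell cannot be told apart.

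The other genes of the licensing machinery that geminin controls lay mostly on the same side of 0 as Gmnn. Of 15 measured genes of origin licensing, Gmnn included, 14 were lower in cKO and 1 higher, none was called in either direction, and the median was -0.34. Mcm7 and Mcm3, subunits of the replicative helicase, had differences of -0.59 ± 0.11 and -0.52 ± 0.13 (SE), and Orc1, the largest origin recognition subunit, -0.37 ± 0.11. Mcidas, a geminin relative that directs multiciliated cells, was the exception at 0.46 ± 0.16. Of 13 measured E2F and pocket protein genes, E2f3 included, 9 were lower and 4 higher in cKO with a median of -0.14 and none called. Those with the smallest p were Rbl2, a pocket protein, at 0.40 ± 0.16, and Tfdp1, the dimer partner of E2F proteins, at -0.21 ± 0.09. Over all genes 57.7% were lower in cKO.

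Irf4 encodes an interferon regulatory factor needed for plasma cells and other lymphocytes and also active in melanocytes. It read -1.38, -1.73 and -1.19 in WT mice 1 to 3 and -0.95, -0.85 and -0.59 in WT mice 4 to 6. In cKO mice 1 to 6 it read -0.89, -1.70, -0.94, -0.61, -3.06 and -1.19. The genotypes overlapped, and the lowest value by a wide gap was that of cKO mouse 5. The difference between genotypes was -0.28 ± 0.27 (SE), which shrank to -0.01 without cKO mouse 5. Of 9 measured IRF genes, 2 were lower and 7 higher in cKO, with a median of 0.06 and none called.

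Exoc2 encodes Sec5, a subunit of the exocyst, the complex that tethers secretory vesicles to the plasma membrane. It read 2.42, 2.56 and 2.60 in WT mice 1 to 3 and 2.38, 2.47 and 2.27 in WT mice 4 to 6. In cKO mice 1 to 6 it read 2.08, 2.12, 1.96, 2.15, 2.45 and 2.44. Mice 1 to 4 of the cKO group lay below every WT mouse, and cKO mice 5 and 6 lay within the WT range. The difference was -0.25 ± 0.09 (SE), 1.19-fold lower in cKO, with -0.19 ± 0.12 in Exp 1 and -0.31 ± 0.12 in Exp 2. In Exp 2 the genotypes did not overlap, which held for 12.6% of all genes there. Without cKO mouse 5 the averaged difference was -0.28. Of 11 measured exocyst and Ral genes, 7 were lower in cKO with a median of -0.08 and none called. After Exoc2 the smallest p-values there belonged to Exoc4 at -0.22 ± 0.09 and Exoc7 at -0.21 ± 0.09, both subunits of the same complex.

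Dusp22 encodes an atypical dual-specificity phosphatase that acts on kinase signalling, including the JNK pathway. Its brighter probe read 1.61, 1.74 and 1.52 in WT mice 1 to 3 and 1.38, 1.66 and 1.24 in WT mice 4 to 6. In cKO mice 1 to 6 it read 1.39, 1.97, 0.99, 1.50, 2.99 and 1.84. In Exp 1 all 3 cKO mice lay above all 3 WT mice, whereas in Exp 2 the genotypes overlapped. Of all genes, 12.9% had genotypes that did not overlap in Exp 1. The difference was 0.64 ± 0.27 (SE) in Exp 1, -0.13 ± 0.27 in Exp 2 and 0.26 ± 0.19 averaged, and without cKO mouse 5 the value in Exp 1 was 0.28 and the average 0.07. The second probe, for another transcript of the gene, gave 0.45 in Exp 1 and 0.00 in Exp 2, with the genotypes overlapping in both. Of 10 measured atypical dual-specificity phosphatases, 5 were lower and 5 higher in cKO and none was called.

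Cdkal1, the nearest measured neighbour of Sox4 on the higher side, encodes a methylthiotransferase that modifies a lysine tRNA and lies in a locus linked to type 2 diabetes in people. It read 0.89, 1.28 and 1.10 in WT mice 1 to 3, 1.20, 1.11 and 1.04 in WT mice 4 to 6, and 1.18, 1.02, 1.10, 1.15, 1.15 and 1.26 in cKO mice 1 to 6. All 6 cKO mice lay inside the range of the WT mice. The difference was 0.04 ± 0.09 (SE), with 0.05 in Exp 1 and 0.03 in Exp 2. Among its partner genes, Elp3, a subunit of the complex that modifies the tRNA wobble base, differed by -0.22 ± 0.09 and Cdk5rap1, the related methylthiotransferase, by -0.03 ± 0.23, and none of the 4 in the list was called.

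Mboat1 encodes an acyltransferase that reacylates lysophospholipids in membranes. It read 2.10, 2.37 and 2.26 in WT mice 1 to 3, 2.21, 2.57 and 2.04 in WT mice 4 to 6, and 2.30, 2.03, 2.30, 2.35, 2.24 and 2.36 in cKO mice 1 to 6. The genotypes overlapped, with only cKO mouse 2 just below the WT range. The averaged difference was 0.005 ± 0.11 (SE). Of 6 measured acyltransferase genes 1 was lower and 5 higher in cKO with a median of 0.06 and none called, Lpcat1 being the one lower at -0.41 ± 0.14. The median was 0.24 in Exp 1 and -0.11 in Exp 2, where 4 of the 6 were lower.

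Hdgfl1 encodes a relative of hepatoma-derived growth factor, a family of chromatin-binding proteins with a PWWP domain. Its probe was above background in 1 of 12 mice, cKO mouse 2, so its level is only bounded in the others and no difference was fitted. Measured values ran from -6.67 to -4.67 in WT and from -7.12 to -4.22 in cKO. The other 4 family members were measured, all 4 were lower in cKO by at most 0.15, and none was called.

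**Figure D2:**
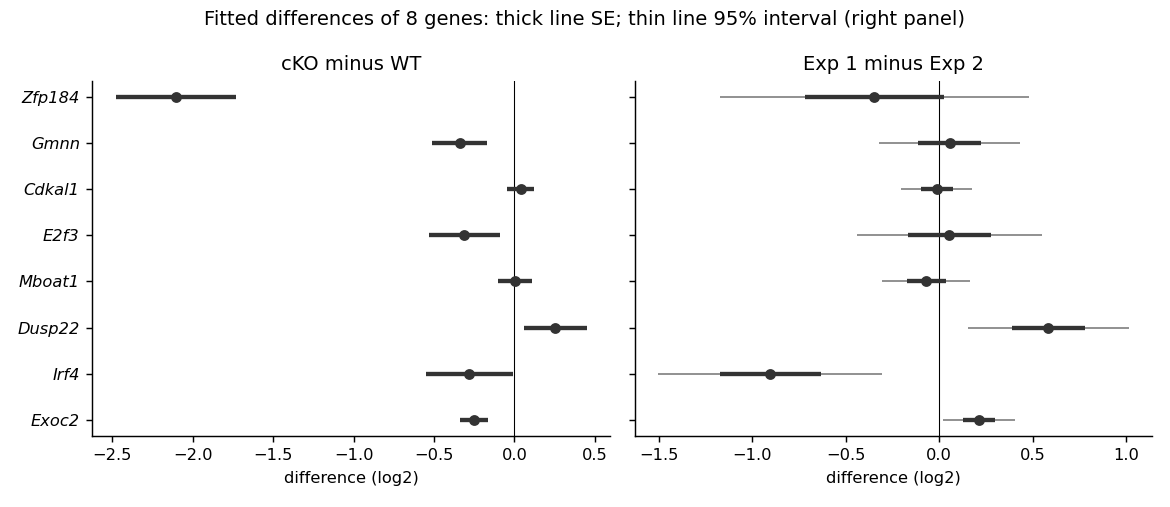
Fitted log2 differences of the 8 measured genes between genotypes (left, averaged over experiments) and between experiments (right, averaged over genotypes). Points are estimates, thick lines their SE, and thin lines on the right 95% intervals. Zfp184 is the only large difference between genotypes (-2.11), and Irf4 (-0.90) and Dusp22 (0.58) are the largest between experiments.

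The comparison of Exp 1 (older mice) with Exp 2 (younger mice) was not the contrast the genes were chosen on, and it was tested. Earlier results of these data were known when the genes were chosen. Irf4 was lower in Exp 1 and was the only one of the 8 genes called, where 20.2% of all genes were called. All 6 mice of Exp 1 (-3.06 to -1.19) lay below all 6 mice of Exp 2 (-0.95 to -0.59), and 10.3% of all genes showed experiments that did not overlap. Its level was -1.71 ± 0.70 in Exp 1 and -0.80 ± 0.16 in Exp 2 (SD, n = 6 each), a difference of -0.90 ± 0.27 (SE; 1.87-fold lower in Exp 1; limma, adjusted p = 0.040). Without cKO mouse 5 the difference was smaller, at -0.64, with an adjusted p of 0.015 in limma. Leaving out cKO mouse 2, 5 or 6 kept the call, and leaving out any of WT mice 1 to 6 or cKO mice 1, 3 and 4 gave adjusted p-values in limma between 0.057 and 0.084 with differences of -0.97 to -0.83. The call was also lost with slide as a term (-1.02, limma adjusted p = 0.058) and with a term for the array-name tag (-0.90, limma adjusted p = 0.054). In the authors' deposited table it was lost too (-0.88, limma adjusted p = 0.054). With the mouse number as a block the difference was -0.89 (limma adjusted p = 0.20). Mouse numbers 1, 3, 5 and 6 join WT and cKO mice of different experiments. Under that block 12 of all genes were called between experiments, against 3270 in the main fit, so nothing about Irf4 is read from it. Within slide 1, where each genotype had 1 mouse of Exp 2, the difference was -0.59. Within slide 2 the difference was -1.53, but its 5 arrays put 1 mouse in 3 of the 4 groups, with cKO mouse 5 as the only cKO mouse of Exp 1, and leave 1 residual degree of freedom, so nothing is read from a p-value there. The difference stayed below 0 under all 25 alternatives run, and 11 of them, that within slide 2 included, kept the call.

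Markers of cells that can carry Irf4 are given beside it, together with markers of other cell types. Melanocyte markers were lower in Exp 1 for 6 of 8 genes with none called and a median of -0.49, and their mean level was 0.61 in cKO mouse 5, 3.03 to 3.60 in the WT mice, 3.03 to 3.35 in the cKO mice of Exp 2 and up to 3.50 in the cKO mice of Exp 1. The mean level of the B and plasma cell markers was -3.22 to -1.84. Among them Sdc1 was bright (mean 4.81 in WT and 4.83 in cKO) and the others were dim. Of these markers 5 of 6 were lower in Exp 1 with none called, Sdc1 being the exception. Macrophage and dendritic cell markers were lower in Exp 1 for 5 of 6, with 3 called lower and Itgax called higher. Skeletal muscle markers were lower in Exp 1 for 8 of 8, all called, with a median of -6.36, and hair follicle markers for 8 of 8 with none called and a median of -0.72. Over the 12 arrays the melanocyte mean had r = 0.81 with Irf4, 0.83 with Zfp184 and -0.79 with Dusp22. These values were 0.14, 0.60 and 0.0083 without cKO mouse 5. Irf4 had r = 0.13 with the B and plasma cell mean and r = 0.33 with the macrophage mean, and 0.39 and 0.37 without that mouse. Of the other lists, keratinocyte markers were higher in Exp 1 for 7 of 8 genes (6 called higher, 1 called lower, median 0.50), adipocyte markers were lower for 5 of 5 (1 called, median -1.52), fibroblast markers for 4 of 6 (2 called lower, median -0.12), and T cell markers for 3 of 6 (2 called higher, median 0.10). The part of these cells in the difference of Irf4 was not tested.

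Between genotypes no marker of any of the 10 lists was called. Melanocyte and hair follicle markers were below 0 in cKO minus WT for 8 of 8 genes each, with medians of -0.73 and -0.37, and macrophage markers for 6 of 6, with a median of -0.19. Skeletal muscle markers were above 0 for 8 of 8 with a median of 2.51, and keratinocyte markers for 8 of 8 with a median of 0.06. By experiment the keratinocyte median was 0.34 in Exp 1 and -0.22 in Exp 2, where 5 of 8 were below 0, and the melanocyte median was -1.36 in Exp 1 and -0.16 in Exp 2. T cell markers were below 0 for 4 of 6 (median -0.49), adipocyte markers for 4 of 5 (median -0.53), fibroblast markers for 3 of 6 (median 0.01) and B and plasma cell markers for 2 of 6 (median 0.04; 0.24 in Exp 1 and -0.15 in Exp 2). The list medians above include cKO mouse 5. In that mouse the mean level was 0.61 for melanocyte, 4.51 for hair follicle and 0.32 for adipocyte markers. In the WT mice these means were 3.03 to 3.60, 6.43 to 7.23 and 2.86 to 4.29. In the cKO mice of Exp 2 they were 3.03 to 3.35, 6.74 to 7.02 and 3.62 to 4.52. The part of these markers in the genotype differences of the 8 genes was not tested.

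Dusp22 was higher in Exp 1, at 1.94 ± 0.54 against 1.36 ± 0.23 (SD, n = 6 each), with overlapping experiments. The difference of 0.58 (95% interval 0.15 to 1.02) missed the threshold in the limma fit (adjusted p = 0.057). It passed without cKO mouse 2 (0.66, adjusted p = 0.0498), without cKO mouse 5 (0.40, adjusted p = 0.043) and without cKO mouse 6 (0.69, adjusted p = 0.029), each by limma. Exoc2 was 0.21 higher in Exp 1 (95% interval 0.02 to 0.41; limma, adjusted p = 0.11), and passed without cKO mouse 2 (0.27; limma, adjusted p = 0.043). The intervals of the other 5 genes included 0: Zfp184 lay between -1.18 and 0.48, Gmnn between -0.32 and 0.44, E2f3 between -0.44 and 0.55, Cdkal1 between -0.20 and 0.18, and Mboat1 between -0.30 and 0.17. Of those, the interval of Cdkal1 was the narrowest.

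Within a single genotype no gene of the 8 passed. Within WT 0.84% of all genes were called between experiments and Irf4 differed by -0.64 ± 0.38 (SE; limma, adjusted p = 0.41). Within cKO 9.98% of all genes were called, Irf4 differed by -1.17 ± 0.38 (limma, adjusted p = 0.078) and Dusp22 by 0.97 ± 0.27 (limma, adjusted p = 0.051). These became, without cKO mouse 5, -0.63 (limma, adjusted p = 0.11) and 0.61 (limma, adjusted p = 0.080). The genotype difference itself did not pass a test of change between experiments for any of the 8 genes, where 0.00618% of all genes passed. That change was -1.14 for Zfp184 with a 95% interval of -2.80 to 0.51, and 0.78 for Dusp22 with a 95% interval of -0.09 to 1.64 (limma, adjusted p = 1.00 for both). Their order turned without cKO mouse 5, at -0.36 for Zfp184 and 0.41 for Dusp22.

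Of 72 genes measured in the 8 lists of relatives and partners, 8 were called between experiments (11.1%, against 20.2% of all genes), Irf4 among them, and the other 7 are these. E2f6, a repressive E2F, was lower in Exp 1, with a difference of -0.49 ± 0.13 (SE; limma, adjusted p = 0.023), the only one called of 13 in its list. Exoc1, an exocyst subunit, was higher by 0.56 ± 0.12 (limma, adjusted p = 0.0098), and Irf9, the interferon-response partner of the STAT proteins, was higher by 0.57 ± 0.14 (limma, adjusted p = 0.018). Mboat2, an acyltransferase related to Mboat1, was higher by 0.75 ± 0.23 (limma, adjusted p = 0.042). Of the atypical phosphatases, Dusp23 and Dusp14 were lower, with differences of -0.60 ± 0.09 and -1.04 ± 0.22 (SE; limma, adjusted p = 0.0033 and 0.011). Mcidas was higher by 0.58 ± 0.16 (limma, adjusted p = 0.033).

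The 9 genes are a small choice from their neighbourhood. Within 8 Mb of Sox4 the annotation held 218 protein-coding genes, 199 genes had a named probe and 115 passed the filter. In cKO minus WT, 2 of the 115 were called, both lower in cKO (1.74%, against 0.42% of all genes and 0.419% of chromosome 13 beyond 8 Mb). They were Zfp184 and H2bc1, a histone H2B gene at 5.02 Mb on the lower side; the second is not among the 9 genes, but the contrast is the one that guided their choice. None of the 12 genes within 2 Mb was called. The median difference was -0.10 within 8 Mb, -0.05 within 2 Mb, -0.05 on chromosome 13 beyond 8 Mb and -0.04 over all genes. Between 8 and 16 Mb it was -0.09, with 66.7% of 63 genes lower, against 67.0% within 8 Mb. Without cKO mouse 5, 3 of 115 were called (2.61%, against 0.655% of all genes). The medians were then -0.11 within 8 Mb and -0.04 over all genes.

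**Figure D3:**
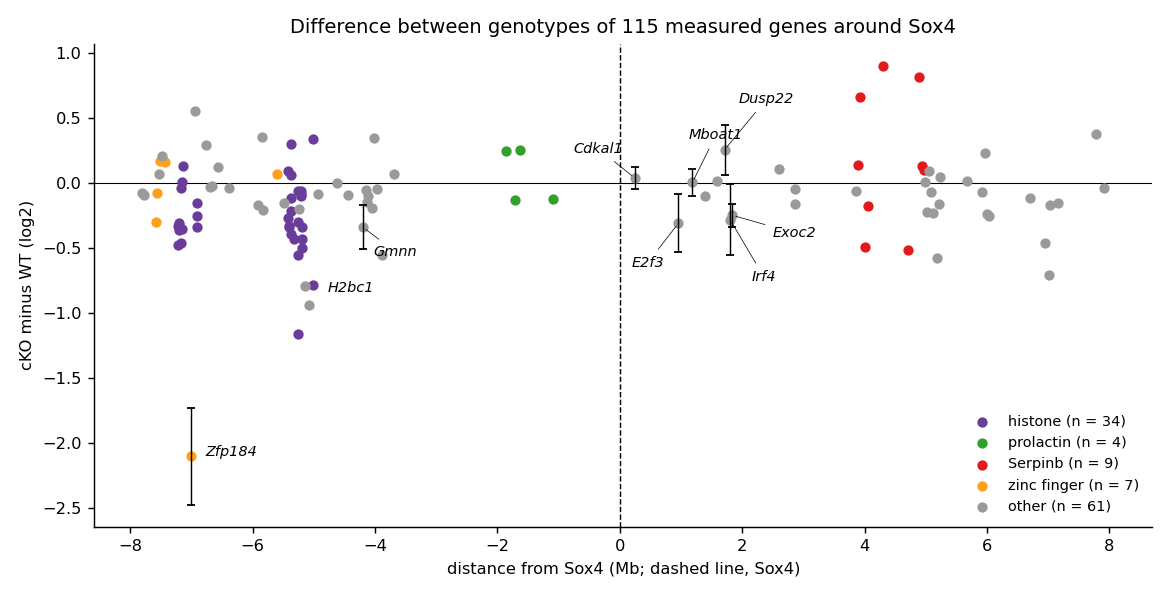
Difference between genotypes (cKO minus WT, log2) of the 115 measured genes within 8 Mb, against their distance from Sox4 in Mb, with lower coordinates to the left; colours are gene families and bars are SE of the 8 fitted genes. Zfp184 lies far below all others, the genes within 2 Mb lie between -0.31 and 0.26, and the histone cluster lies mostly below 0.

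H2bc1 read 2.61 to 3.03 in the WT mice and 1.81 to 2.31 in the cKO mice, so the genotypes did not overlap. Its difference was -0.79 ± 0.10 (SE), with -0.61 in Exp 1 and -0.96 in Exp 2, and it stayed called when any single mouse was left out. By size the next lower difference after Zfp184 was that of H2ac6, a histone H2A gene, at -1.16 ± 0.31 (SE). The 3 largest in the other direction among genes above background on all arrays of a genotype were Serpinb6e, a serine protease inhibitor, at 0.82 ± 0.38, Prss16, a serine protease known from thymus, at 0.56 ± 0.20, and Nrn1, neuritin, at 0.38 ± 0.15. Prl2c1, of the prolactin family, was the nearest measured gene on the lower side of Sox4, at 1.10 Mb, and differed by -0.12 ± 0.16. Genotypes did not overlap for 4 of the 115 genes (3.48%, against 1.25% of all genes): Zfp184, H2ac6, H2bc1 and H2bc14.

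The histone genes made up 34 of the 115. They encode core and linker histones, most of them made in S phase. They lie on the lower side of Sox4, farther from it than Gmnn and on both sides of Zfp184. Of the 34, 28 were lower in cKO (82.4%) with a median of -0.30, 1 was called, and without cKO mouse 5 the median was -0.21 and 25 were lower. The 10 measured genes of the histone clusters on other chromosomes were all lower in cKO, with a median of -0.30 and none called. With cKO mouse 5 left out, 9 of the 10 were lower with a median of -0.23 and 1 called. Of all genes 0.655% were called in that fit. The proliferation markers given above were lower in the same mice, and their part in the histone values was not tested. Histone genes are near-identical in sequence, so their probes can read each other's transcripts.

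The other families showed no common direction. Of 9 measured Serpinb genes 3 were lower and 6 higher in cKO with a median of 0.13, and of 4 prolactin genes 2 were lower with a median of 0.06. Of the 7 zinc finger genes measured within 8 Mb, Zfp184 included, 3 were lower and 4 higher, with a median of 0.07. The remaining 61 genes had a median of -0.08, with 41 lower and none called. Between experiments 17 of the 115 were called (14.8%, against 20.2% of all genes).

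**Figure D4:**
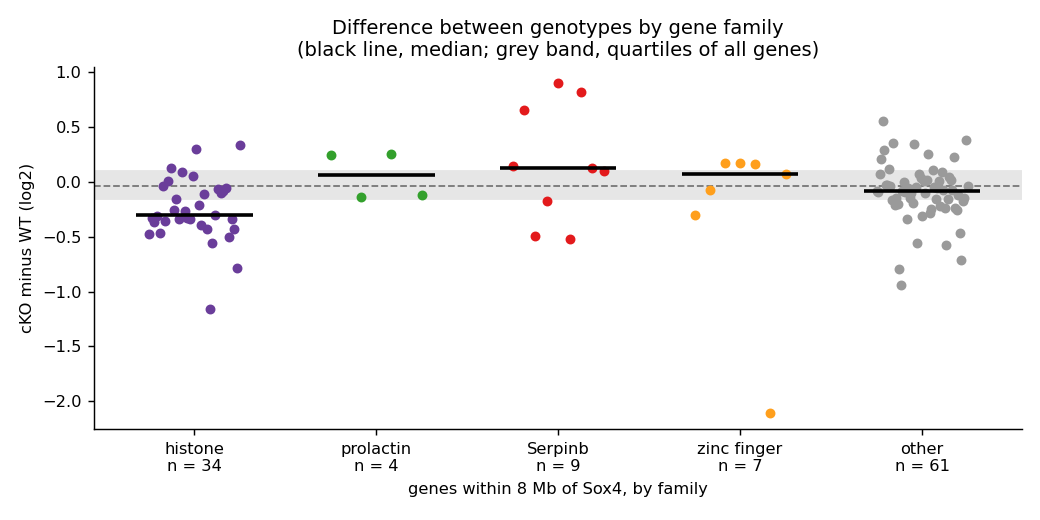
Difference between genotypes (cKO minus WT, log2) of the genes within 8 Mb of Sox4, by family, 1 point per gene. The black line is the family median, the dashed line the median of all genes (-0.04) and the grey band the range between the quartiles of all genes. The histone median (-0.30) lies below the band, and Zfp184 is the lone zinc finger gene far below it.

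Genes whose log2 values over the 12 arrays were most like each of the 8 genes were picked by the highest Pearson correlation, as a description, and all of them lay outside the 8 Mb. The arrays share genotype, experiment and sample quality, so high values are common. Zfp184 was most like Ccdc106, H2bu2 (a histone H2B gene of chromosome 11) and Hmgb3 (a chromatin protein), with r of 0.98 each and 0.96 to 0.97 without cKO mouse 5. In cKO minus WT, the contrast known when Zfp184 was chosen, these genes differed by -0.71, -1.20 and -0.90. Gmnn was most like Rrm2 (r = 0.99), the small subunit of ribonucleotide reductase, then Cenpe, a kinetochore motor, and Rsl1d1. E2f3 was most like Ipo5, an importin, Krr1, a ribosome assembly factor, and Cenpe (r = 0.97, 0.97 and 0.96). Irf4 was most like 3 genes of hair shaft structure, Krtap8-1, Krt34 and Krtap7-1 (r = 0.98 each; 0.94, 0.96 and 0.94 without cKO mouse 5), which differed between experiments by -1.50, -1.79 and -1.87. Dusp22 was most like Sgpp1, Fbxo6 and Prrg2 (r = 0.99, 0.98 and 0.98), and Exoc2 was most like Zfp330, Mphosph6 and Zfp68 (r = 0.94 each). Lower likeness was the rule for Cdkal1, led by Gatm (r = 0.86), and Mboat1, led by Vcpip1 (r = 0.88).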

How the data were processed

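Total RNA of plucked skin from 12 mice was hybridised to 12 one-colour Agilent arrays. The deposited scanner files hold, per the file headers, spot intensity that is background-subtracted and not scaled between arrays, raw spot and local background intensity, and flags that mark spots as outliers, as saturated or as above background. The authors also deposited a table of log2 values, used as an alternative only. How its background was corrected and normalized is not stated in the labels or headers, and the submitters' processing notes name limma. Its columns have nearly the same distribution, and their scale was read from their agreement with each array (Spearman 0.953 to 0.986). The column of cKO mouse 1 correlated slightly better with another array (0.955) than with its own (0.953), so the table was also used without it.

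Control spots and outlier spots were left out, log2 signal was averaged per probe and the 75th percentile of the array was subtracted. A probe was kept when well above background on at least 3 of 12 arrays, and each gene took its brightest kept probe. Probes were named through RefSeq transcripts of GRCm38: 27509 of 55681 had a symbol. The 16181 genes were fitted as 4 group means with limma 3.58.1 in R 4.3.3 (24 missing values, 8 residual degrees of freedom, two-sided, Benjamini-Hochberg over all genes, threshold 0.05). The fit was tested on simulated data. Errors beside means are SD and beside differences SE. Precision is limited by the number of arrays.

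The genes, lists and tests were chosen with earlier results of these data known. Genes named are Sox4, the 9 genes, genes within 8 Mb called between genotypes, the nearest measured gene on each side, the 3 largest differences each way within 8 Mb among genes above background on all arrays of a genotype, the 3 most correlated genes per fitted gene, and up to 3 genes per list by smallest p. Top2a, Tpx2, H2bc14, Itgax and the relatives named for the comparison of experiments were named with their values seen. The lists were the E2F family, origin licensing, exocyst, IRF family, acyltransferases, methylthiotransferases, HDGF family, atypical phosphatases, and markers of 10 cell types. Alternatives were median scaling, normexp (offset 50, on the median spot signal, as mean spot signal was not used here) with quantile normalization, the deposited table, other filters on dim probes, the mean of all probes, slide and an array-name tag as terms, each slide alone, mouse number as a block, single mice left out, and windows of 4 and 16 Mb.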

Additional observations from a re-analysis of the deposited data

Results flagged for a closer look

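In groups of 6 mice, a value was picked out when its gap to the nearest mouse exceeded Dixon's 95% limit for its share of the group's range. Chance gives about 1 in 20 groups, and 4 of 24 groups screened were picked out. Zfp184 was -5.38 in cKO mouse 5, where its probe was not above background, against -3.37 to -2.71 in the other 5 cKO mice. The second probe of E2f3 read -3.20 in the same mouse, against -2.15 to -1.86 in the others. Mboat1 was 2.03 in cKO mouse 2, against 2.24 to 2.36 in the other cKO mice. The second probe of Dusp22 was 0.39 in WT mouse 1, against -0.22 to 0.01 in the other WT mice. Of these, 2 values belong to cKO mouse 5, whose array had the lowest share of probes above background.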

How the results depend on the processing

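Among the 8 fitted genes, the count called between genotypes was 1 and fell to 0 with no filter on dim probes, with a filter on all 12 arrays (which dropped Zfp184), with slide as a term, within slide 1, with the array-name tag and with the mouse number as a replicate block. It ranged from 0 to 1 over fits without single mice. The count within 8 Mb was 2 and became 1 with no filter, with all 12 arrays above background, with slide and with the array-name tag, 0 within slide 1, under the replicate block and within 4 Mb, 5 within slide 2, and 1 to 3 without single mice. The median difference of the 8 genes was -0.36 to -0.12 without single mice and 0.041 within slide 2. The median within 8 Mb stayed below 0 under all 27 alternatives (-0.22 to -0.03).

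The count called between experiments was 1. It was 3 with normexp and quantile normalization, 0 with the deposited table and 2 with that table without cKO mouse 1, 2 with all 12 arrays above background and with the mean of all probes, 0 with slide as a term, within slide 1, with the array-name tag and under the replicate block, 3 within slide 2, and 0 to 3 without single mice. The count called for the interaction was 0, and 1 within slide 2, where 5 arrays leave 1 residual degree of freedom. Over all genes 3270 were called between experiments. That count was 4070 with normexp and quantile normalization, 1626 with the deposited table and 3411 with that table without cKO mouse 1. It was 2276 with slide as a term, 3125 with the array-name tag and 12 under the replicate block. Without single mice it was 1994 to 3561. Each slide alone leaves 1 mouse in some groups. The cause of these moves was not tested.

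Small differences between experiments changed sign, and no value of changed sign was called. E2f3 was 0.05, and -0.031 with median scaling, -0.10 with the mean of all probes, -0.11 with slide as a term, -0.55 within slide 2, -0.25 with its other probe and -0.10 to 0.21 without single mice. Gmnn was 0.06, and -0.029 with median scaling, -0.033 with slide as a term, -0.33 within slide 2 and -0.041 to 0.18 without single mice. Cdkal1 was -0.01, and 0.011 with the deposited table without cKO mouse 1, 0.018 within slide 1 and -0.061 to 0.036 without single mice. Mboat1 was -0.07, and 0.036 with the deposited table and -0.13 to 0.0050 without single mice. Zfp184 was -0.35, and -0.63 to 0.043 without single mice, the last without cKO mouse 5. It was called within slide 2 (-1.26; limma adjusted p = 0.0089), where the only cKO mouse of Exp 1 is cKO mouse 5.

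Mouse numbers 1, 3, 5 and 6 belong to WT and cKO mice of different experiments, so they pair no mice within an experiment. Deviations from the group means of same-numbered mice correlated at -0.26 to 0.07. Differently numbered mice were not set beside them, so these values do not decide whether numbers 2 and 4 are pairs. Over all genes, 68 were called between genotypes, 4 under the replicate block, 19 with the deposited table, 37 with it without cKO mouse 1, 31 with the array-name tag, 473 within slide 2, 45 with no filter, and 31 to 122 without single mice. With median scaling the median over all genes went from -0.04 to -0.12.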
